A study of Mus musculus with 39 samples.

Results

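Connexins are the proteins that form gap junctions, the channels through which neighbouring cells exchange ions and small molecules. The genes described here are Gja1, Gja4, Gja5, Gjb2, Gjb5 and Gjc1, which were chosen by symbol: every array probe whose transcript accession belongs to one of these symbols in the RefSeq mouse annotation was taken. This gave 9 probes of 6 genes, among 41174 probes and 16535 named genes on the array, and all 9 probes were tested. Each gene is told through 1 lead probe, the probe that was well above background on the most arrays. The other probes are named where they differ. Gja1, Gja4 and Gjb5 have only 1 probe each, so no other probe can be set beside it.

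Expression was measured on 39 one-colour Agilent arrays of mouse RNA in 7 groups, all from the strain (B6xDBA/2)F1, with oocytes and donor cells taken from females 8 to 10 weeks old. OC were unfertilized metaphase II oocytes collected 15 h after hCG (7 arrays), IVF were 2-cell embryos cultured for 24 h after in vitro fertilization (6 arrays), and Cumulus were the somatic cells that surround the oocyte and served as nuclear donors (4 arrays). TSA(-) were 2-cell embryos made by somatic cell nuclear transfer (SCNT) of cumulus cells and cultured for 24 h after activation without drug (8 arrays). TSA(+) were the same kind of embryo with 5 nM trichostatin A (TSA), an inhibitor of histone deacetylases, for the 8 h that followed activation (6 arrays). Spi-C 1.0 and Spi-C 0.1 were SCNT embryos injected at the pronuclear stage with mRNA of the transcription factor Spi-C at 1.0 or 0.1 mg/ml (4 arrays each). Each array held RNA of 10 pooled oocytes or embryos, or of 500 cumulus cells, amplified in 2 rounds, so that values are means over a pool and fewer cells cannot be told apart from less RNA per cell. All SCNT embryos shared cumulus cells as their only donor type, and the labels name no vehicle-only or water-injected group.

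A connexin hemichannel in the membrane of one cell docks with one of its neighbour, and the connexins a cell makes decide which neighbours it can couple to. In the ovarian follicle, Gja4 (Cx37) makes the channels between the oocyte and the granulosa cells around it, and Gja1 (Cx43) couples granulosa and cumulus cells to one another. Through these channels the follicle passes nutrients and the cyclic nucleotides that hold the oocyte in meiotic arrest. Gja1 and Gjc1 (Cx45) are also among the connexins of the early embryo. Gjb2 (Cx26) is best known from the inner ear and from the epithelium of skin and placenta, Gja5 (Cx40) from the endothelium and the atrium of the heart, and Gjb5 from keratinocytes and trophoblast.

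In these data Gja1 was the only one of the 6 genes that was higher in 2-cell embryos than in oocytes, and its highest levels were those of the cumulus cells. Gja4, Gjb2 and Gjc1 were highest in oocytes and fell by the 2-cell stage. On their lead probes Gja5 and Gjb5 lay close to background in every group, while the other Gja5 probe was brighter on some embryo arrays. Among the 2-cell embryos Gja4 was the only one of the 6 whose lead probe passed the test between IVF embryos and clones. Its call in TSA(-) minus IVF was lost in 6 other settings and when 1 of 7 single arrays was left out. The other Gjc1 probe passed in Spi-C minus IVF.

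RefSeq promoter windows in the build GRCm38.p6 were found for 5 of the 6 genes. The 3 windows of genes with the largest changes between oocyte and embryo are printed, each the 250 bases before the start of the gene, 5′ to 3′ on the strand of the gene, because Gja1 moved against Gja4 and Gjb2. Capitals mark matches, on either strand, to TGAGTCA (the AP-1 site) and GGGCGG (the GC box).
Gja1 (chr10:56377050-56377299, + strand): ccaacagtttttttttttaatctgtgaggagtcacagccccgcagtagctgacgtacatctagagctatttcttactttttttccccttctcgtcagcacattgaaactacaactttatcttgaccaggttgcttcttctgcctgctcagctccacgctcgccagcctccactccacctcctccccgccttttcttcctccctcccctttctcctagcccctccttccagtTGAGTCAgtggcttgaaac
Gja4 (chr4:127314040-127314289, - strand): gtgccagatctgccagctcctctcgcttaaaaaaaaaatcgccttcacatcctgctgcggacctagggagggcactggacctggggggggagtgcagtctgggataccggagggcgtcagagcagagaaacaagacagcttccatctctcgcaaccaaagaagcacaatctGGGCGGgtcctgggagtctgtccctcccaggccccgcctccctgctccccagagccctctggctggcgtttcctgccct
Gjb2 (chr14:57104703-57104952, - strand): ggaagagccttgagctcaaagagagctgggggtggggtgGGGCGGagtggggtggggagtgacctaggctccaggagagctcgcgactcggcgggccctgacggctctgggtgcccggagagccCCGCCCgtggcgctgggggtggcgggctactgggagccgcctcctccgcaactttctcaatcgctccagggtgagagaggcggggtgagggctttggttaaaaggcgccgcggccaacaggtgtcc
The Gja1 window held 1 match to the AP-1 site, beginning 19 bases before the start, and no GC box, while 4.46% of the 32851 promoter windows of the same length held an AP-1 match. The Gja4 window held 1 GC box and the Gjb2 window held 2, against 32.7% of all windows with at least 1, and neither held an AP-1 match. The GC content was 50% for Gja1, 61.2% for Gja4 and 69.2% for Gjb2, beside a median of 52.4% over all windows. No window of the 3 held TATAAA, which was found in 12.4% of all windows, or CCAAT, found in 33.8%. The E-box CANNTG, found in 66.2% of windows, occurred once in the Gja1 window, where it overlaps the AP-1 match, and once in the Gjb2 window. These are matches of letters only.

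Levels are given as the log2 of the background-corrected intensity relative to the 75th percentile of the same array, which is therefore 0. Levels of different probes have no common scale and are compared only within a probe. That percentile was 282 to 534 intensity units on OC arrays, 815 to 1122 on Cumulus arrays, 1031 to 1623 on IVF, TSA(-) and TSA(+) arrays and 2145 to 2713 on Spi-C arrays, and 48.6% to 77.5% of probes were well above background. OC, IVF, TSA(-) and TSA(+) arrays were spread unevenly over slides of 1 scanner, and TSA(+) and TSA(-) shared only 1 slide, with 1 array each. In contrast, the Spi-C and the Cumulus arrays lay on slides of their own, read with another scanner. For these groups slide, scanner and group cannot be told apart, except between the Spi-C concentrations, which shared both their slides. All differences come from 1 limma fit over the 7 groups, and a difference is called at a Benjamini-Hochberg adjusted p under 0.01 over the 39517 probes tested. The labels call the arrays of a group biological replicates without naming animals, so p-values measure the spread between these pools. The 8 oocyte markers on the array were all above background on every OC array, and the 14 cumulus markers on every Cumulus array. In Cumulus minus OC the 8 oocyte markers were all called lower. Of the 14 cumulus markers 11 were called higher and 1, Foxl2, lower, and Has2 and Serpine2 were not called. Over all probes tested, 23.9% were higher and 44.2% lower. On every OC array 5 of the 14 were above background too.

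**Figure D1:**
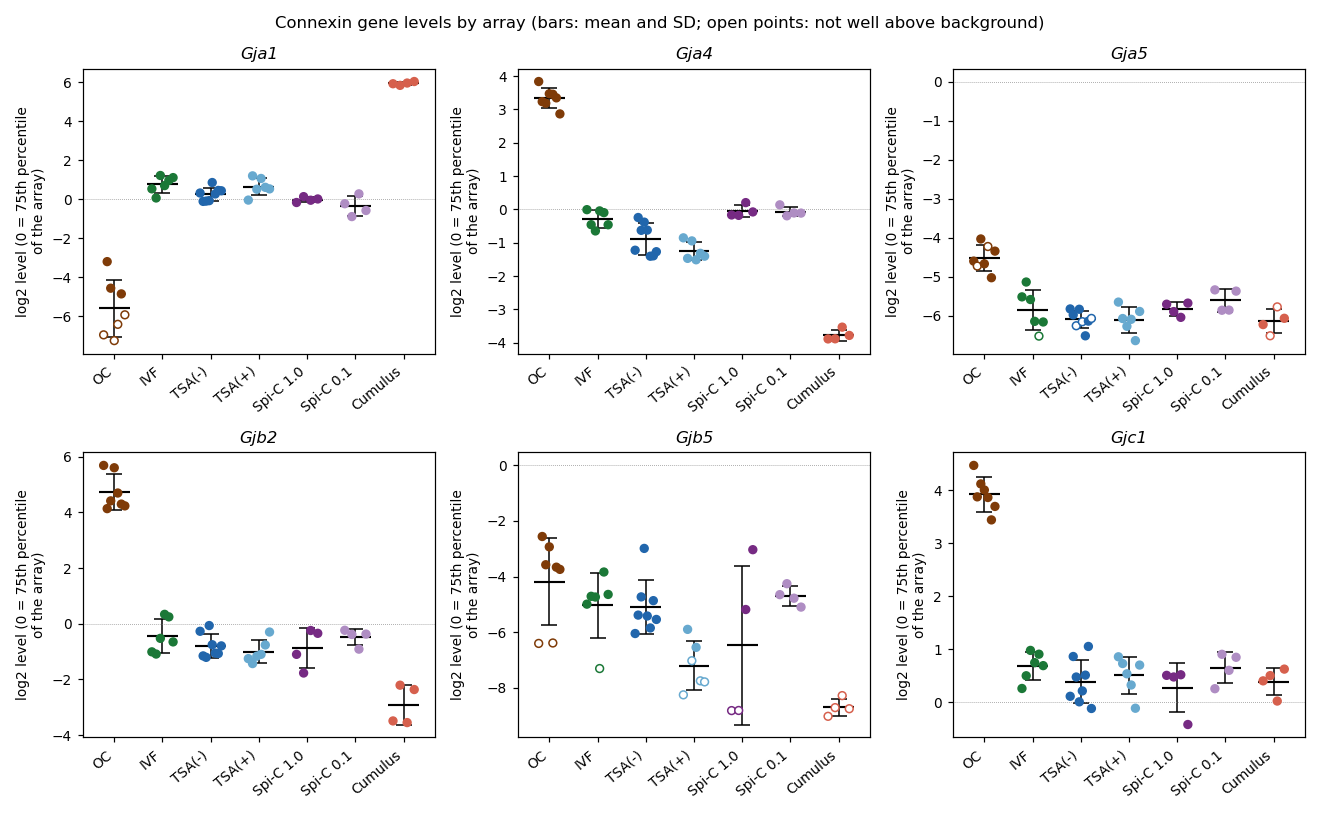
Log2 level of the lead probe of each gene on each of the 39 arrays (vertical axis, 0 is the 75th percentile of the array) by group (horizontal axis), with the mean and SD of the group. Filled points were well above background and open points were not; Gja1 rises from OC to the 2-cell groups, Gja4, Gjb2 and Gjc1 fall, and Gja5 and Gjb5 stay low.

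Gja1, the connexin that couples cumulus cells, was near background in oocytes. Its level on the 7 OC arrays ranged from -7.25 to -3.20 with a median of -5.93, and only 3 of the 7 arrays were well above background, with raw intensities of 2.28 to 42.7. On the 6 IVF arrays it ranged from 0.06 to 1.22 with a median of 0.83, all well above background, with intensities of 1103 to 2590. The groups did not overlap. The IVF embryos exceeded the oocytes by 6.36 on the log2 scale (SE 0.39, limma adjusted p = 9.97e-17). The 8 TSA(-) arrays, from -0.11 to 0.85 with a median of 0.29, exceeded the oocytes by 5.85 (SE 0.36, adjusted p = 1.11e-16). The size rests on oocyte values near background, so no fold is given: after normexp, another background correction, which adds an offset of 50 to every signal, it was 3.29 and 2.80, and both stayed called. Within the slides that held both groups, IVF minus OC was 5.41 and 6.48, and TSA(-) minus OC lay between 4.98 and 7.08 on 4 slides.

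The 2-cell groups differed little among themselves in Gja1. TSA(+) embryos ranged from -0.05 to 1.20 with a median of 0.57. The Spi-C 1.0 arrays read -0.17, 0.13, -0.05 and 0.01, and the Spi-C 0.1 arrays -0.23, -0.89, 0.27 and -0.58. These ranges overlap with those of IVF and TSA(-) embryos. TSA(-) minus IVF was -0.51 (SE 0.38, adjusted p = 0.349), TSA(+) minus TSA(-) 0.39 (SE 0.38, adjusted p = 0.631) and Spi-C minus TSA(-) -0.44 (SE 0.35, adjusted p = 0.384). Spi-C minus IVF was -0.95 (SE 0.38, adjusted p = 0.0406), which did not pass at 0.01; it passed when the groups were fitted in other sets of arrays and after another background correction.

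Cumulus cells held by far the highest Gja1 level, at 5.92, 5.84, 5.96 and 6.03 on the 4 arrays, with raw intensities of 50599 to 64116 and no saturated spot. They exceeded OC by 11.53 (SE 0.44, adjusted p = 4.45e-23), IVF by 5.17 (SE 0.45, adjusted p = 1.72e-12) and TSA(-) by 5.68 (SE 0.43, adjusted p = 3.57e-14). The size of the first rests on oocyte values near background. It was 8.4 to 11.7 over 15 other settings and stayed called in each. The order of Gja1 levels was Cumulus, IVF, TSA(+), TSA(-), Spi-C 1.0, Spi-C 0.1 and OC, and of its 6 neighbouring pairs only Cumulus against IVF and Spi-C 0.1 against OC passed the test; 59.2% of all probes tested passed in Spi-C 0.1 minus OC.

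Since Gja1 is itself abundant in cumulus cells, the other cumulus markers are given beside it. The 14 markers on the array (Has2, Tnfaip6, Ptx3, Inhba, Nr5a2, Serpine2 and others) summed, on the linear scale relative to the 75th percentile, to 302 to 325 on Cumulus arrays. The sum was 11.5 to 15.3 on OC arrays, 13.0 to 14.9 on IVF arrays, 9.41 to 13.7 on TSA(-) arrays, 12.8 to 15.6 on TSA(+) arrays and 10.3 to 12.9 on Spi-C arrays. The sums of oocytes and 2-cell embryos overlap, but single markers moved both ways between them. In IVF minus OC 3 were called higher and 6 lower, where 23.9% of all probes tested were higher and 43.0% lower. Among them were Amhr2, at least 234-fold higher in IVF (adjusted p = 2.08e-26), and Serpine2, with means of 2.91 in OC and -1.29 in IVF. The part of the markers in the Gja1 difference was not tested. In OC, 11 of the 14 were above background on at least 1 array and Amhr2, Fst and Lhcgr on none. In the Cumulus arrays, markers of other cells were present too: 3 of 4 leukocyte markers were above background on every array and their sum was 22.5 to 105, against at most 1.21 in any other group, and of 4 endothelial markers 3 were above background on every array and Tek on none, with a sum of 2.41 to 3.76, against 4.47 to 8.16 on OC arrays and 0.79 to 2.21 in the 2-cell groups. Their part in the connexin levels of the Cumulus group was not tested.

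**Figure D2:**
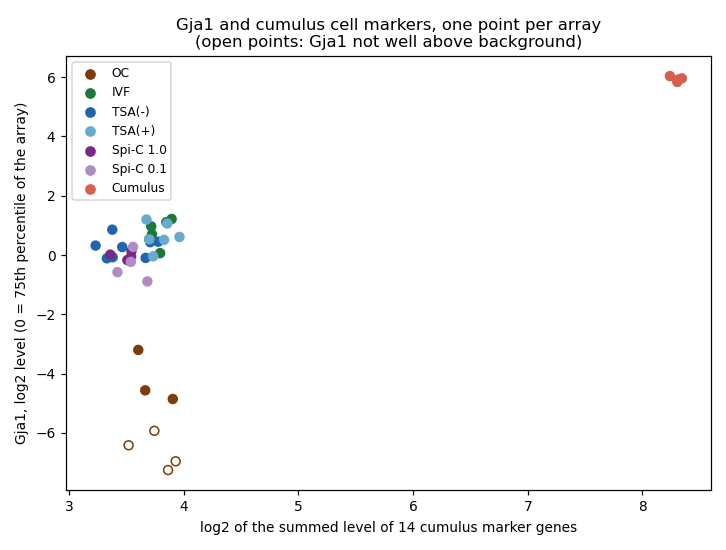
Gja1 log2 level (vertical axis, 0 is the 75th percentile of the array) against the log2 of the summed level of 14 cumulus marker genes (horizontal axis), with 1 point per array, coloured by group and open where Gja1 was not well above background. OC and 2-cell arrays share a narrow range of marker sums, between 9.41 and 15.6 on the linear scale. Over it the Gja1 levels of OC lie below those of the embryos. The 4 Cumulus arrays lie apart on both axes. Single markers weigh differently in the sums of the groups, so like sums are no measure of like cumulus content. Amhr2 had means of 2.60 in IVF and 2.21 in Cumulus and was well above background on no OC array.

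Gja4 encodes the oocyte's own contribution to its junctions with granulosa cells, and it was one of the connexins that were highest in oocytes. The 7 OC arrays ranged from 2.86 to 3.83 with a median of 3.35. IVF embryos ranged from -0.65 to -0.01 with a median of -0.28, and TSA(-) embryos from -1.41 to -0.24 with a median of -0.93. Oocyte and embryo values did not overlap. IVF embryos fell by 3.63 below oocytes (SE 0.18, 12.4-fold, adjusted p = 3.63e-19) and TSA(-) embryos by 4.24 (SE 0.17, 18.9-fold, adjusted p = 3.96e-22). The sizes depend on the processing. Over 16 other settings IVF minus OC was -4.315 to -2.741 and TSA(-) minus OC -4.918 to -3.422, and both stayed called. Cumulus cells had the lowest levels, at -3.89, -3.88, -3.53 and -3.78, all well above background. Cumulus minus OC was -7.11 (SE 0.21, adjusted p = 1.09e-26), Cumulus minus IVF -3.48 (SE 0.21, adjusted p = 8.88e-17) and Cumulus minus TSA(-) -2.87 (SE 0.20, adjusted p = 4.31e-15).

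Gja4 was also the gene that separated the embryo groups. It was lower in TSA(-) than in IVF embryos, with TSA(-) minus IVF at -0.61 on the log2 scale (SE 0.18, 1.53-fold, adjusted p = 0.00766), although the values of the groups overlap: 4 of the 8 TSA(-) arrays lay below every IVF array and the other 4 within the range of the IVF arrays. Within the 3 slides that held both groups the difference was -0.24, -0.49 and -1.36. The call was lost, with the same direction, when 1 of 7 single arrays was left out (IVF replicate 1, 4 or 5, or TSA(-) replicate 1, 6, 7 or 8), at -0.57 to -0.54 and adjusted p of 0.018 to 0.0236, and in 6 other settings, among them Tukey's test and the slide as a fixed block. TSA(+) embryos ranged from -1.51 to -0.85 with a median of -1.36, and none reached an IVF array. TSA(+) minus IVF was -0.96 (SE 0.19, 1.95-fold, adjusted p = 1.38e-04), with -0.71, -0.85 and -1.02 within the 3 shared slides. TSA(+) minus TSA(-) was -0.35 (SE 0.18, adjusted p = 0.29), a difference not past the test, with a 1.96 SE interval from -0.70 to -0.01.

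Embryos injected with Spi-C mRNA had Gja4 levels of -0.17, -0.18, 0.20 and -0.08 at 1.0 mg/ml and 0.14, -0.19, -0.11 and -0.11 at 0.1 mg/ml. All 8 lay above the 8 TSA(-) arrays. Spi-C minus TSA(-) was 0.83 (SE 0.16, 1.78-fold, adjusted p = 1.97e-04), where the median of all probes was 0.14, and Spi-C minus IVF was 0.22 (SE 0.18, adjusted p = 0.32). The concentrations differed by 0.01 (SE 0.23). Because the Spi-C arrays were read apart from the TSA(-) arrays, a part of slide or scanner in this difference cannot be told apart from the injection. The order of Gja4 levels was OC, Spi-C 1.0, Spi-C 0.1, IVF, TSA(-), TSA(+) and Cumulus. The neighbours Spi-C 1.0 and 0.1, Spi-C 0.1 and IVF, and TSA(-) and TSA(+) did not pass the test, and the other 3 pairs passed, among them OC against Spi-C 1.0, where 59.6% of all probes passed, and TSA(+) against Cumulus, where 54.7% passed.

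Gjb2, an epithelial connexin, had the largest fall of the 6 from oocyte to embryo. Its lead probe ranged from 4.13 to 5.69 on OC arrays with a median of 4.41, from -1.09 to 0.34 on IVF arrays with a median of -0.59, and from -1.21 to -0.07 on TSA(-) arrays with a median of -0.93. Oocytes lay far above both, and IVF and TSA(-) embryos overlap. The fall from OC was 5.17 to IVF (SE 0.31, 36.1-fold, adjusted p = 4.09e-17) and 5.52 to TSA(-) (SE 0.29, 45.9-fold, adjusted p = 6.33e-19). These sizes depend on the processing. Over 16 other settings IVF minus OC was -5.86 to -3.01 and TSA(-) minus OC -6.201 to -3.39, and both stayed called. TSA(+) embryos ranged from -1.43 to -0.30 with a median of -1.13. Spi-C 1.0 embryos read -1.10, -1.77, -0.24 and -0.34, and Spi-C 0.1 embryos -0.24, -0.39, -0.91 and -0.37. No pair of 2-cell groups next to each other in the order passed the test, the adjusted p lying between 0.586 and 0.962.

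Cumulus arrays read -3.49, -2.21, -3.55 and -2.36 for Gjb2, below every other group and still well above background. Cumulus minus OC was -7.63 (SE 0.35, adjusted p = 8.45e-21), Cumulus minus IVF -2.45 (SE 0.36, adjusted p = 1.80e-07) and Cumulus minus TSA(-) -2.11 (SE 0.34, adjusted p = 1.15e-06). The other Gjb2 probe, A_51_P267622, was at background: none of the OC, Spi-C 1.0 and Cumulus arrays and 2 arrays of each other group were well above background, and its IVF minus OC value of -0.85 (SE 0.62) did not pass (adjusted p = 0.215). The fall of Gjb2 rests on the bright probe, A_52_P382886.

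Gjc1, a connexin of the early heart and of smooth muscle, was lower in the 2-cell groups than in oocytes and differed little among those groups on its lead probe. The OC arrays ranged from 3.44 to 4.47 with a median of 3.87, the IVF arrays from 0.26 to 0.98 with a median of 0.72, and the TSA(-) arrays from -0.12 to 1.05 with a median of 0.35. The groups of embryos overlap and all lie below the oocytes. IVF minus OC was -3.24 (SE 0.20, 9.45-fold, adjusted p = 1.40e-16) and TSA(-) minus OC -3.53 (SE 0.19, 11.6-fold, adjusted p = 1.24e-18). Over 16 other settings they were -3.929 to -2.105 and -4.212 to -2.429, so the sizes depend on the processing, and both stayed called. In contrast to Gja4 and Gjb2, cumulus cells were at the level of the embryos, at 0.40, 0.50, 0.02 and 0.62, with Cumulus minus IVF at -0.29 (SE 0.23, adjusted p = 0.286) and Cumulus minus TSA(-) at -0.0015 (SE 0.22, adjusted p = 0.996). With each array centred on its median, however, Gjc1 was called higher in Cumulus than in TSA(-) embryos, by 0.87 (adjusted p = 8.18e-04), and than in Spi-C 1.0 embryos, by 1.21 (adjusted p = 9.69e-05). Of the 6 neighbouring pairs in its order (OC, IVF, Spi-C 0.1, TSA(+), TSA(-), Cumulus, Spi-C 1.0) only OC against IVF passed.

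The other Gjc1 probe, A_52_P285041, gave a like fall from OC to IVF of 3.26 (SE 0.20, adjusted p = 5.95e-17) but placed 2 further groups lower. On it, Spi-C minus IVF was -0.69 (SE 0.19, adjusted p = 0.00369) and Cumulus minus IVF -0.82 (SE 0.23, adjusted p = 0.00186), where the lead probe gave -0.22 (SE 0.19, adjusted p = 0.384) for Spi-C minus IVF. The probes disagree on these calls.

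Gja5, a connexin of endothelium and atrium, was dim throughout on its lead probe. Its lead probe lay between -5.02 and -4.03 on OC arrays, -6.52 and -5.13 on IVF arrays, -6.51 and -5.82 on TSA(-) arrays, -6.63 and -5.65 on TSA(+) arrays, -6.04 and -5.34 on Spi-C arrays and -6.51 and -5.77 on Cumulus arrays. Of the 39 arrays 31 had it well above background, the 8 others being 2 OC, 1 IVF, 3 TSA(-) and 2 Cumulus arrays. IVF minus OC was -1.32 (SE 0.19, adjusted p = 1.79e-07) and TSA(-) minus OC -1.58 (SE 0.18, adjusted p = 8.81e-10). Before scaling, the median intensity was 16.4 units in OC, 19.2 in IVF and 21.3 in TSA(-), so that the raw signal was no higher in oocytes, while the 75th percentile to which it is related was lower there. The other probe, A_52_P525317, gave an IVF minus OC of -0.32 (SE 0.81, adjusted p = 0.73), with OC values from -5.48 to -2.34. Its intensity varied widely between embryo arrays, at 369, 22.9, 904 and 687 units on the Spi-C 0.1 arrays. On this probe Cumulus minus IVF was called, at -2.95 (SE 0.94, adjusted p = 0.00655), where the lead probe gave -0.30 (SE 0.22, adjusted p = 0.249). Spi-C minus TSA(-) was 2.05 on it (SE 0.73, adjusted p = 0.0361), which did not pass. No pair of embryo groups passed on the lead probe, the smallest adjusted p between embryo groups being 0.107 for Spi-C 0.1 minus TSA(+).

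Gjb5, a connexin of keratinocytes and trophoblast, was the gene with the widest spread. The OC arrays ranged from -6.41 to -2.56 (median -3.66, 5 of 7 well above background), the IVF arrays from -7.31 to -3.84 (median -4.72, 5 of 6) and the TSA(-) arrays from -6.05 to -2.99 (median -5.40, 8 of 8). The TSA(+) arrays ranged from -8.26 to -5.90 with a median of -7.39, and only 2 of 6 were well above background. TSA(+) values lay mostly below the others, but the groups overlap with TSA(-) at the edge. TSA(+) minus TSA(-) was -2.11 (SE 0.70, adjusted p = 0.0969) and TSA(+) minus IVF -2.17 (SE 0.75, adjusted p = 0.0248), and neither passed. On the slides that held both groups, TSA(+) minus IVF was between -3.26 and -2.54 on 3 slides, and TSA(+) minus TSA(-) was -2.87 on 1 slide.

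The Spi-C 1.0 arrays read -8.82, -8.82, -5.19 and -3.03 for Gjb5 and the Spi-C 0.1 arrays -4.65, -4.26, -4.78 and -5.10. The former spread over a range wider than any difference between groups, and the concentrations differed by -1.77 (SE 0.92), with an interval of 1.96 SE from -3.57 to 0.03. No Cumulus array was well above background. The Gjb5 level was therefore at least 4.93-fold higher in OC than in Cumulus (adjusted p = 7.11e-06), at least 2.72-fold higher in IVF (adjusted p = 2.44e-04) and at least 2.60-fold higher in TSA(-) (adjusted p = 1.60e-04), as bounds set by the lowest signal well above background on each Cumulus array. After normexp the Cumulus minus IVF and Cumulus minus TSA(-) values were -0.44 (adjusted p = 0.164) and -0.23 (adjusted p = 0.433), smaller than these bounds, and the calls were lost. Cumulus minus OC stayed called in 15 other settings, at -4.64 to -1.75 on the log2 scale. The smallest of these sizes is also below its bound, so the bounds depend on the processing. Gjb5 lies close to Gja4 on chromosome 4.

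Counted together, 5 of the 6 genes were called in IVF minus OC, 1 higher and 4 lower, where 66.9% of all probes tested were called, 23.9% higher and 43.0% lower. In TSA(-) minus OC, which shares the OC arrays, the count was again 5, 1 higher and 4 lower, with 70.8% of probes called, 24.1% higher and 46.8% lower. For the connexins the median difference was -2.28 in IVF minus OC, beside -0.87 over all probes tested. That shift over all probes depends on the scaling: it was -1.55 when each array was centred on its median and -0.33 after quantile normalization, and the 5 calls and their directions were the same under both. In Cumulus minus OC all 6 were called, 1 higher and 5 lower, with 68.1% of probes called, 23.9% higher and 44.2% lower. In Cumulus minus IVF it was 4 genes, 1 higher and 3 lower, with 56.3% of probes called, 24.5% higher and 31.8% lower. In Cumulus minus TSA(-) it was again 4, 1 higher and 3 lower, with 56.1% of probes called, 25.0% higher and 31.1% lower. The counts against Cumulus moved with the scaling used. Centring on array medians left 15784 probes higher and 8695 lower in Cumulus minus TSA(-), against 9879 and 12292 here, and Gja5 (0.82) and Gjc1 (0.87) were called higher as well, which makes 6 genes. In Cumulus minus IVF that scaling gave 15436 probes higher and 8994 lower, against 9692 and 12556, and again 4 genes.

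Between embryo groups few connexins were called. It was 1 of 6 in TSA(-) minus IVF, with 20.7% of probes called, 1 of 6 in TSA(+) minus IVF, with 21.1%, and 1 of 6 in Spi-C minus TSA(-), with 15.8%, and each time the gene was Gja4; the first pair of comparisons shares the IVF arrays and the third shares the TSA(-) arrays with the first. These shares are near or below the background. The split over all probes turned with centring on the median, from 3542 higher and 4778 lower to 4626 and 3181 in TSA(+) minus IVF and from 3771 and 2490 to 2296 and 3771 in Spi-C minus TSA(-), while Gja4 kept its direction and its call. In Spi-C minus IVF, where 31.1% of probes were called, limma called 0 of the 6 and 1, Gja1, had an unadjusted p under 0.05. In TSA(+) minus TSA(-), where 0.296% of probes were called, limma and Tukey's test called 0 of the 6 and 1, Gjb5, had an unadjusted p under 0.05. Between the Spi-C concentrations, where 2 probes or 0.00506% were called, both tests called 0 and no gene had an unadjusted p under 0.05.

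**Figure D3:**
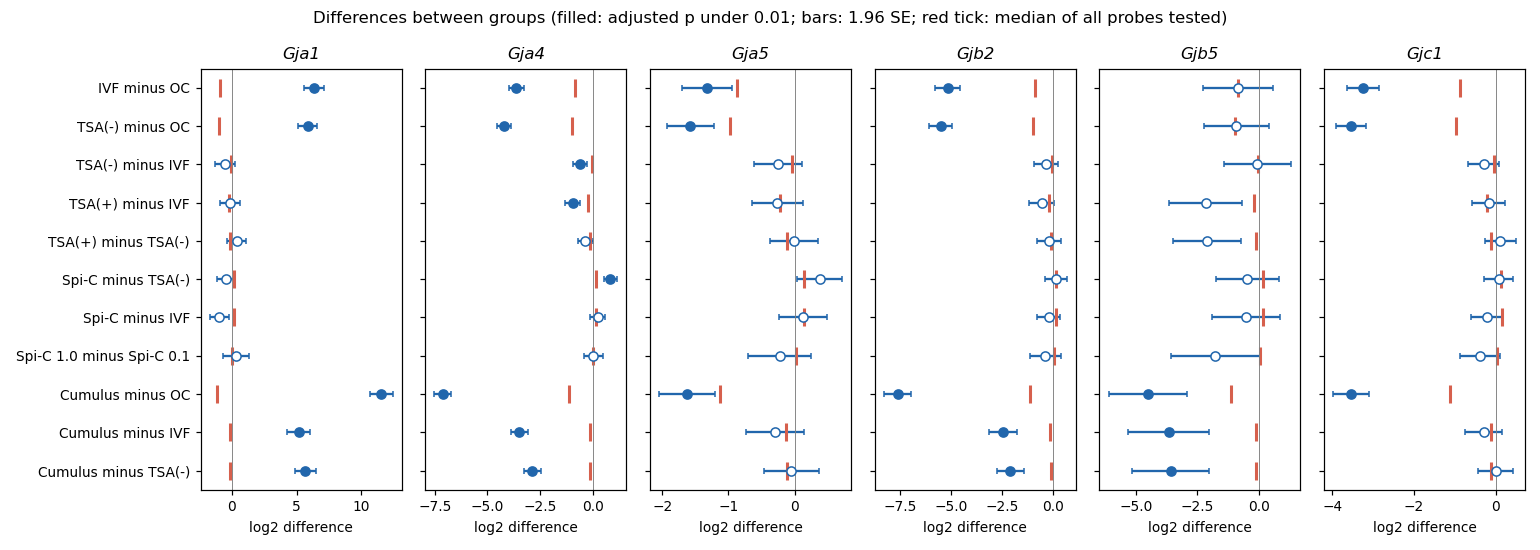
Log2 difference between groups (horizontal axis) for the lead probe of each of the 6 genes in 11 comparisons (vertical axis), with bars of 1.96 SE; filled points were called at an adjusted p under 0.01, and the red tick is the median difference over all 39517 probes tested. The differences from OC and from Cumulus stand far from the red tick for Gja1, Gja4 and Gjb2, and among the embryo groups the filled points are those of Gja4.

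For each gene the other genes whose level over the 39 arrays was most like it are named as a description; the points share arrays and groups, and oocytes, embryos and cumulus cells lie far apart in them. Among the nearest to Gja1 were Eef1g and Rpl17 (Pearson's r = 0.97 each), a translation elongation factor subunit and a ribosomal protein. Nearest to Gja4 were Mipep (0.99), Gdpd1 and Rab3d (0.98 each). Nearest to Gjb2 were Ubac2, Atxn2l and Tjap1 (0.98 each), and nearest to Gjc1 were Mfsd9 (0.98), Carhsp1 and Blcap (0.97 each). The dim genes had looser neighbours: Cyth4, Olfr462 and Oscar for Gja5 (0.90, 0.90 and 0.89) and Sulf1, Tnks and Zdhhc14 for Gjb5 (0.74, 0.73 and 0.71). Among the 6 themselves, r was 0.94 between Gja4 and Gjb2, 0.92 between Gjb2 and Gjc1 and -0.96 between Gja1 and Gja4.

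Of the other connexins on the array 10 are described here, of which 9 were tested. In IVF minus OC limma called 3 of the 9 lower and 0 higher, where 43.0% of all probes tested were lower and 23.9% higher. Tukey's test called only 1 of the 9. The median difference of the 9 was -0.89, beside -0.87 over all probes. Gja6 fell by 2.90 (SE 0.83, adjusted p = 0.00215) and Gjd3 by 2.04 (SE 0.29, adjusted p = 1.12e-07). Gjc3 was called too (adjusted p = 0.00221), but it was well above background on none of the OC arrays and on 1 of 6 IVF arrays, so no fold is given. Gja6 was well above background on every OC and IVF array, with means of -1.09 and -4.00, and Gjd3 on 5 of 7 OC and 4 of 6 IVF arrays. In TSA(-) minus OC 5 were lower and none higher, where 46.8% of all probes tested were lower and 24.1% higher. Of the 5, 1, Gjc3, was never above background in either group.

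Between the embryo groups few of these 9 passed. In TSA(-) minus IVF, where 20.7% of all probes tested were called, limma and Tukey's test called 0 of the 9. Of them 3 had an unadjusted p under 0.05, with Gja6 nearest at -2.65 (SE 0.80, adjusted p = 0.0108). In TSA(+) minus IVF, where 21.1% of all probes tested were called, 1 of the 9 was lower. It was Gjb6, at -3.98 (SE 0.95, adjusted p = 0.00129). Only 2 of 6 TSA(+) arrays were well above background, and its other probe had the opposite order, at -7.18 in IVF and -6.66 in TSA(+). In TSA(+) minus TSA(-), where 0.296% of all probes tested were called, limma called 0 of the 9 and 2 had an unadjusted p under 0.05. Gjb6 came nearest, at -3.47 (SE 0.89, adjusted p = 0.0319), and was the 1 gene that Tukey's test called. Its other probe, with a mean of -7.56 in TSA(-), again had the opposite order. In Spi-C minus TSA(-), where 15.8% of all probes tested were called, 1 of the 9 was higher. It was Gjb1, the connexin of the liver, at 2.02 (SE 0.33, adjusted p = 1.39e-05).

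**Figure D4:**
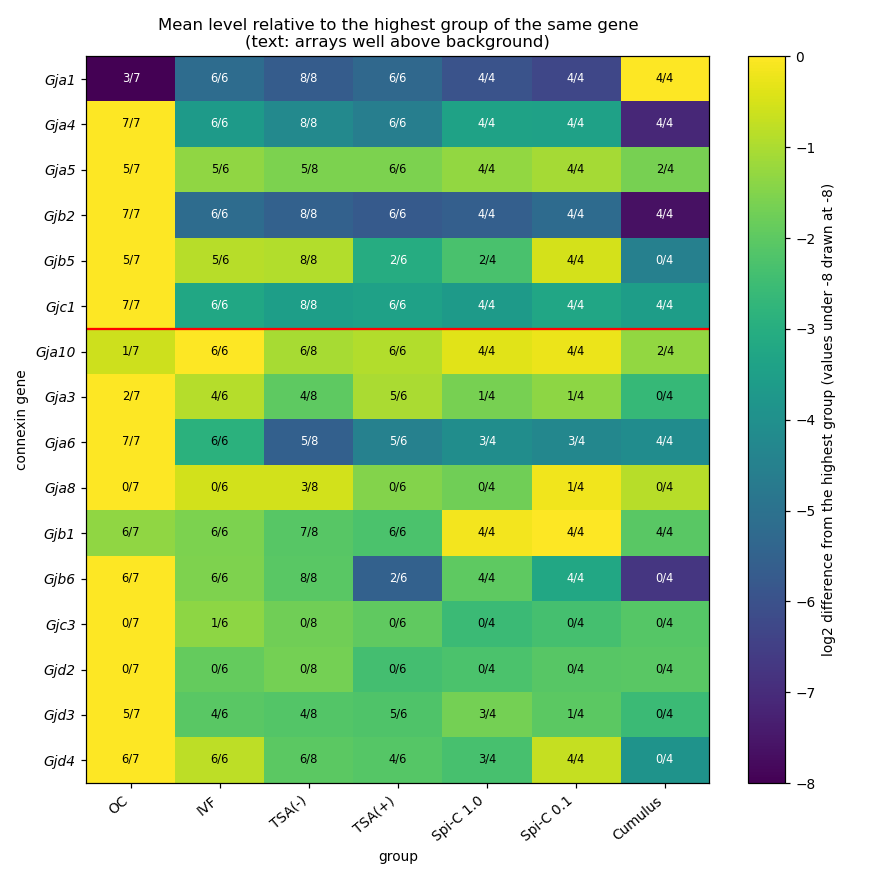
Mean log2 level of each of 16 connexin genes (rows) in the 7 groups (columns), given as the difference from the group in which that gene is highest; the text in each cell counts the arrays well above background, and the red line parts the 6 genes described from the 10 others. Yellow marks the highest group: Cumulus for Gja1, OC for the other 5, and, among the other connexins, OC for Gja6 and Gjb6 and the Spi-C 0.1 group for Gjb1. For Gjb5, OC against the next group, Spi-C 0.1, did not pass the limma test (adjusted p = 0.583). For Gja5 the raw signal was no higher in OC than in IVF and TSA(-).

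Of the pannexins, which form channels of another family, Panx1 and Panx3 were tested. Panx1 was above background on every array and was 0.89 higher in Spi-C than in TSA(-) embryos (SE 0.15, adjusted p = 1.99e-05) on its lead probe, while the means of its dimmer probe went the other way, at -3.83 in TSA(-), -4.16 in Spi-C 1.0 and -4.75 in Spi-C 0.1 embryos. It was lower in TSA(+) than in IVF embryos, at -0.72 (SE 0.17, adjusted p = 0.00124).

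The proteins that place connexins in the membrane were mixed. Of 9 tested genes for connexin scaffolds and trafficking, 1 was higher and 5 were lower in IVF than in OC, with a median of -1.35, where 23.9% of all probes tested were higher and 43.0% lower and the median was -0.87. Nedd4, a ubiquitin ligase that acts on Cx43, fell by 3.17 (adjusted p = 4.75e-16), Dbn1 by 1.95, Erp29 by 1.79 and Tjp1, whose product ZO-1 binds connexins, by 1.41, although the dimmer Tjp1 probe had means of -4.34 in OC and -3.85 in IVF. In TSA(-) minus IVF, where 20.7% of all probes tested were called, 2 were higher and none was lower. They were Cav1, the coat protein of caveolae, by 2.30 (SE 0.57, adjusted p = 0.00202) and Nedd4 by 0.95 (SE 0.20, adjusted p = 2.99e-04). The other Cav1 probe, mostly at background in embryos, had a mean of -8.10 in IVF and -8.31 in TSA(-). Cav1 was 10.15 higher in Cumulus than in OC (SE 0.66, adjusted p = 4.28e-16). Of 10 kinases known to phosphorylate connexins, 4 were higher and 5 lower in IVF than in OC (1 of the 5, Prkce, above background in neither group), beside the same shares over all probes, led by Cdk1 at 5.99 and Mapk7 at 3.68 above and Prkaca at 2.77 and Akt1 at 2.68 below. Src was 1.51 higher in TSA(-) than in IVF embryos (SE 0.23, adjusted p = 3.54e-06), whereas the means of its dimmer probe were -6.13 in IVF and -6.20 in TSA(-).

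Cadherins hold the contacts at which gap junctions form, and filopodia of granulosa cells carry the contacts with the oocyte. Of 10 genes for these, 2 were higher and 6 lower in IVF than in OC, with a median of -1.78 beside -0.87 over all probes, of which 23.9% were higher and 43.0% lower. Ctnnb1, a catenin that binds cadherins, fell by 4.42, Cdh1, the E-cadherin of oocyte and embryo, by 4.08 and Ctnna1 by 3.28. Myo10, the motor of filopodia, rose by 2.99 (adjusted p = 4.04e-10). In TSA(-) minus IVF, where 20.7% of all probes tested were called, 1 was higher, Ctnnb1 by 0.62, and 4 were lower. Among the 4 were Myo10 at -2.18 (SE 0.32, adjusted p = 1.50e-06) and Cdh1 at -1.13 (SE 0.14, adjusted p = 6.05e-08). Spi-C minus TSA(-) had Fscn1 higher by 1.51 and Cdh1 and Ctnnb1 lower, at -1.11 and -0.96, where 15.8% of all probes tested were called.

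The last list held 6 genes that make, sense or break down the cyclic nucleotides of the follicle. Gpr3, the receptor that keeps cAMP high in the oocyte, and Pde3a, a phosphodiesterase that breaks cAMP down, were above background on every OC array and on no Cumulus array, and were at least 65.2-fold and 87.8-fold higher in OC (adjusted p = 1.21e-20 and 5.39e-24). Npr2, the receptor for C-type natriuretic peptide, differed between Cumulus and OC by -0.13 on its lead probe (SE 0.39, adjusted p = 0.771), but its other 2 probes had means of 2.86 and -0.47 in Cumulus and were well above background on no OC array. Of these 6 genes 3 were called in IVF minus OC, where 66.9% of all probes tested were called. Nppc was lower, at -1.59. The array percentile to which its signal is related had a median of 392 units in OC and 1116 in IVF. The part of this scaling in the Nppc value was not tested. Adcy3 was well above background on all 6 IVF arrays and on no OC array. Pde5a was above background in neither group, so that neither Adcy3 nor Pde5a has a fold. In TSA(-) minus IVF Adcy3 was higher by 1.79 (SE 0.31, adjusted p = 1.96e-05) and Nppc by 0.97 (SE 0.28, adjusted p = 0.00804), where 20.7% of all probes tested were called. In TSA(+) minus TSA(-) limma and Tukey's test called 0 of the 9 scaffold, 10 kinase, 10 adhesion and 6 signalling genes, of which 3, 1, 0 and 0 had an unadjusted p under 0.05. Over all probes tested, limma called 0.296% there.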

How the data were processed

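The deposited intensity is the processed signal of Agilent Feature Extraction (9.5.3.1 or 10.5.1.1, per the file headers), which the authors left background-corrected and not normalized between arrays. Median foreground and local background intensity, also deposited, served normexp with an offset of 50. The deposited log2 value table of the series proved to be the same signal scaled to the 75th percentile and centred on the median of each probe.

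Here log2 intensity was taken minus the 75th percentile of each array. Outlier spots (1820 values) and control spots were dropped, and repeated spots averaged per probe. The 39517 of 41174 probes that reached an intensity of 10 on any IVF or SCNT array entered the test. One model over the 7 groups was fitted with limma 3.58.1 in R 4.3.3, checked on simulated data; tables and figures used Python 3.11.15. Accessions were named through RefSeq (23374 probes). The members and gene lists were chosen with earlier results of these data known. List genes are told through the lead probe and named, up to 4 per list and comparison, where called, by size; genes outside this rule (Npr2 and a few uncalled values, such as Gjb6 between the TSA groups) were added after their values were seen. Some genes of the lists, and 1 named by likeness, are not reported here. The alternatives are given at the end. The number of arrays limits the precision.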

Additional observations from a re-analysis of the deposited data

Results flagged for a closer look

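In 3 of the 42 combinations of a lead probe and a group, 1 array stood apart from the others by a gap that made up more of the group's range than Dixon's 95% limit allows, and chance alone flags about 1 group in 20. Gjb5 on IVF replicate 4 was at -7.31, against -4.99 to -3.84 on the other IVF arrays (gap over range 0.667). Gjb5 on TSA(-) replicate 4 was at -2.99, against -6.05 to -4.73 (0.57). Gjc1 on Spi-C 1.0 replicate 4 was at -0.42, against 0.48 to 0.52 (0.956).

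The change of Gja4 from the oocyte differed between kinds of 2-cell embryo. Since the OC arrays cancel, these are the differences between embryo groups given above, with the same limma test, and no further evidence. The value was -0.61 in TSA(-) relative to IVF (adjusted p = 0.00766), -0.964 in TSA(+) relative to IVF (adjusted p = 1.38e-04) and 0.834 in Spi-C relative to TSA(-) embryos (adjusted p = 1.97e-04). The first lost its call when any of 7 single arrays was left out, and in the third slide and scanner cannot be told apart from the injection.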

How the results depend on the processing

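Of 4717 values of single genes under other settings, 4672 kept their side of the threshold (85 of them called in neither setting changed sign), 20 lost the call, 15 gained one in the same direction, 10 gained one in the opposite direction, and 0 called values reversed. The 10 were, for Gja5, -0.319 in Spi-C minus TSA(-), -0.61 in Spi-C minus IVF, -0.63 in Spi-C 1.0 minus IVF, 0.476 in Cumulus minus TSA(-) and 0.44 in Cumulus minus TSA(+) after normexp, 0.74 in Cumulus minus IVF and 0.88 in Cumulus minus TSA(-) after quantile normalization, and 0.82 in Cumulus minus TSA(-) and 0.64 in Cumulus minus TSA(+) with each array centred on its median, and for Gjc1 0.87 in Cumulus minus TSA(-) with that centring. As a mean over probes Gja5 was called at -1.62 in Cumulus minus IVF. The counts of called genes from OC and from Cumulus stayed within 1.5 times, as did the 9 of 36 neighbouring pairs called (7 to 12). For TSA(-) minus IVF, 0 genes were called with at least 2-fold required, Tukey's test, the fits in 2 sets, the groups alone, the slide as a fixed block or the replicate block, and 0 to 1 with single arrays left out. For TSA(+) minus IVF it was 0 with 2-fold required, 2 at an adjusted p under 0.05, in the fits in 2 sets and with the slide as a fixed block, and 1 to 2 with single arrays left out. Spi-C minus TSA(-) gave 0 with 2-fold required and 2 after normexp. Spi-C minus IVF gave 1 at an adjusted p under 0.05, in the fits in 2 sets and with the groups alone, 2 after normexp and 0 to 1 with single arrays left out. The cause of these changes was not tested. Gjb5 was no longer called in Cumulus minus IVF and Cumulus minus TSA(-) after normexp, at -0.44 and -0.23, and Gja5 in IVF minus OC was not called as a mean over its probes (-0.82). Leaving out IVF replicate 4 or Spi-C 1.0 replicate 4 gave Gjb5 a call in TSA(+) minus IVF, and leaving out OC replicate 2 gave Gja1 one in Spi-C minus IVF.

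The replicate numbers did not pair the arrays: the correlation of same-numbered arrays was -0.0875 to 0.151 over 97 pairs and 6 of 39 arrays correlated best with their own number. With the replicate block Gja4 was -0.47 in TSA(-) minus IVF (adjusted p = 0.0391, against 0.00279 to 0.0476 over the settings), and no other count changed by over 1.5 times. Tukey's test has no value for the mean of both Spi-C groups, and the slide as a fixed block none for Cumulus or for Spi-C against the others. For Gja5 and Gjb5 the signal over background limits what can be told.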
